A study of Homo sapiens and Mus musculus with 33 samples.

Results

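The regions described here are 471 H3K18cr peaks of mouse colon epithelium that lie within 1 kb of the starts of genes with almost no RNA. They were taken from 30338 H3K18cr peaks by 3 conditions: the peak was narrower than 5 kb, it lay within 1 kb of a gene start, and every listed gene starting within 5 kb of it had under 10 RNA-seq counts summed over 3 libraries. Of the 9933 peaks narrower than 5 kb within 1 kb of a gene start, these silent-gene peaks are 471 and the remaining 9462 are called other promoter peaks. Both the H3K18cr peaks and the RNA counts chose the regions, so values of either are given as a description without a test. H3K4me3 in the same tissue, the base composition of the regions, and the human cell line data were not used in the choice.

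H3K18cr is histone H3 with a crotonyl group on lysine 18. Crotonyl is a short unsaturated acyl group. It is written by acetyltransferases, is removed by class I histone deacetylases, and lies mostly at promoters of active genes. H3K4me3, histone H3 trimethylated at lysine 4, marks promoters that recruit the transcription machinery and also unmethylated CpG islands, which are stretches of DNA rich in CG pairs that hold many promoters, including those of developmental genes kept off in most tissues. RNA from these genes may be absent while the promoter chromatin carries such marks, which is the question that peaks at silent genes address.

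Colon epithelium came from male C57BL/6 mice and was measured by RNA-seq (3 libraries), by H3K18cr ChIP-seq (2 libraries and 2 inputs) and by H3K4me3 ChIP-seq (3 libraries and 1 input), where input is sheared chromatin without immunoprecipitation. The age of the mice is not given in the sources used here. The RNA libraries came from separate mice. For ChIP the study's methods describe colons pooled over animals and a legend describes cells from 2 mice, so the spread between ChIP libraries may be technical. For H3K4me3 the methods also speak of 3 biological replicates. HCT116 cells are a human colon carcinoma line. They were treated for 18 h with 5 uM MS275 (entinostat), an inhibitor of class I histone deacetylases, or with the solvent DMSO. Their RNA was measured by RNA-seq (4 libraries per treatment), and H3K18cr and H3K18ac by ChIP-seq (3 libraries per mark and treatment in the labels). A legend of the study also gives n = 3 for both marks, while its methods speak of 2 replicates for H3K18cr. H3K18ac is the acetylated form of the same lysine. The colon RNA-seq libraries held 8166406 to 10707901 counts, and the sums of scaled reads over all H3K18cr peaks were 3482707 and 5595946 in the ChIP libraries against 1437984 and 1811780 in the inputs. All 10 epithelial marker genes examined had at least 10 counts and together made up 15191 to 19602 CPM (counts scaled to 1000000 per library), all 8 immune markers also had at least 10 counts but summed to 24.5 to 40.4 CPM, the 7 stromal and vascular markers (6 with at least 10 counts, 1 at 0) summed to 27.4 to 41.9 CPM, and the 5 markers of enteric neurons and glia (2 with at least 10 counts, 1 at 0) summed to 0.618 to 1.49 CPM. The 4 markers of rare epithelial cells (endocrine and tuft cells) all had at least 10 counts and summed to 187 to 194 CPM. The part of such minor cells in the peaks was not tested. In bulk tissue, few cells using a gene and little RNA per cell cannot be told apart.

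The 200 bases before the gene start of 5 of these promoters are printed to show how far their base composition ranges, since peaks with and without H3K4me3 differed in their content of CG pairs. The sequences are from the RefSeq copy of GRCm38.p6, 5′ to 3′ on the strand of the gene, with each CG pair in capitals. Hist1h3c (histone H3, chr13:23745603-23745802, minus strand) stands for the histone genes, Gsc (a homeobox transcription factor, chr12:104473328-104473527, minus strand) for the homeobox genes, Kcng3 (a potassium channel subunit, chr17:83631896-83632095, minus strand) for the ion channels, Ccdc63 (a gene of sperm tails, chr5:122138958-122139157, minus strand) for the germline genes, and Gm11648 (a predicted gene, chr11:103344553-103344752, plus strand) for the peaks without H3K4me3.
Hist1h3c: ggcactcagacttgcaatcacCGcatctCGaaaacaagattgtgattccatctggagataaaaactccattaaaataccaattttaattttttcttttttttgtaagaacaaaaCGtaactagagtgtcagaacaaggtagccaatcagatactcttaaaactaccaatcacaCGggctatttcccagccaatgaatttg
Gsc: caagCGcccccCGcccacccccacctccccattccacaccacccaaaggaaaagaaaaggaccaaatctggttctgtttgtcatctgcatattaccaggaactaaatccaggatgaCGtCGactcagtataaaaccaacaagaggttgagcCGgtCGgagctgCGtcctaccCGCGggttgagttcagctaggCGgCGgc
Kcng3: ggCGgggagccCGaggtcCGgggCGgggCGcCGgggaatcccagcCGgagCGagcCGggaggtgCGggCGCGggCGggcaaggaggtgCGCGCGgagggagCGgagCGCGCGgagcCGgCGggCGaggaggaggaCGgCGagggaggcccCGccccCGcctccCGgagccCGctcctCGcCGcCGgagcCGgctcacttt
Ccdc63: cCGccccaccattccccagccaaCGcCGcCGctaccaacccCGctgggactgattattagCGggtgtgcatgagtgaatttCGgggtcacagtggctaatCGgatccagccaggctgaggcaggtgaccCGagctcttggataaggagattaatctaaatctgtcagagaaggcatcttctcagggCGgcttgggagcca
Gm11648: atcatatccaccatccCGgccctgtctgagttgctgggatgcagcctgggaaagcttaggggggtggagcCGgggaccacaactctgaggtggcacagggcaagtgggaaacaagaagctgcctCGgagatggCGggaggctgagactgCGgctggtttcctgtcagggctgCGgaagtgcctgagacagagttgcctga
The Kcng3 sequence held 33 CG pairs in 200 bases at a GC content of 82.5%, Gsc 11 at 55.5%, Ccdc63 10 at 57.5%, Gm11648 6 at 61.0% and Hist1h3c 4 at 36.0%. The windows of Hist1h3c and Kcng3 lay within their H3K18cr peaks and that of Gm11648 as well, whereas that of Ccdc63 lay outside its peak, which ended inside the gene.

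The silent-gene peaks were narrower and held fewer reads than the other promoter peaks. Their width ranged from 300 to 4950 bp with a median of 1350 bp, against a median of 1650 bp for the other promoter peaks. The mean of the scaled H3K18cr reads (read counts that the authors scaled to the largest library) had a median of 97.3 per peak, against 151 in the other promoter peaks. In the ChIP libraries the silent-gene peaks held 22.3 to 388 scaled reads (median 77.9) in replicate 1 and 29.2 to 773 (median 120.0) in replicate 2, and in the inputs 4 to 139 (median 36) and 6.11 to 176 (median 44.3).

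The log2 ratio of ChIP to input, with a pseudocount of 1 scaled read, was above 0 at all 471 peaks in both replicates. The peaks were called on the H3K18cr data, so a ratio above 0 is in part set by the choice. The study's methods name input as the reference for H3K4me3 peaks and state none for H3K18cr peaks. The median ratio was 1.20 in replicate 1 and 1.41 in replicate 2 (mean 1.30 ± 0.15 SD, n = 2), against 1.37 and 1.70 at the other promoter peaks. The ratios of a peak in replicates 1 and 2 were weakly related, with a Pearson correlation of 0.215 across the 471 peaks and 0.473 across the other promoter peaks, so the order of single peaks by ratio is weakly determined. Peaks share their libraries, so these correlations describe the libraries.

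**Figure D1:**
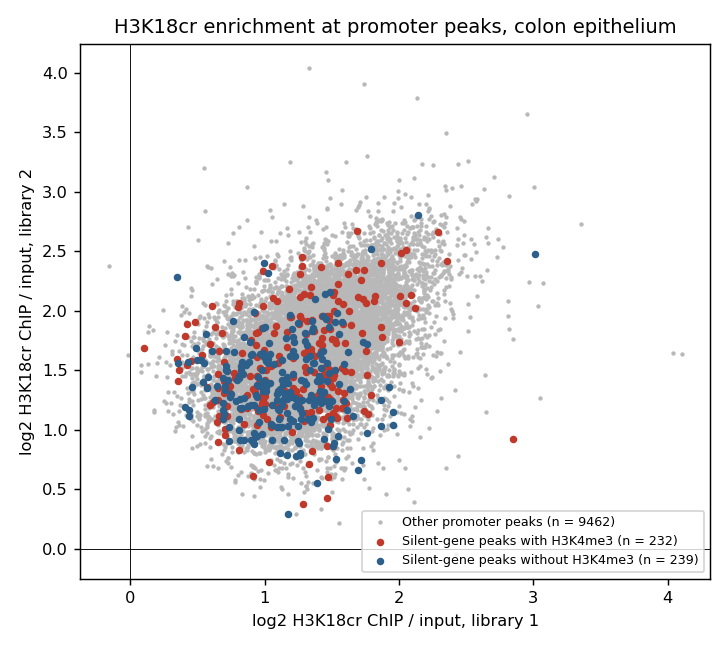
Log2 ratio of H3K18cr ChIP to input in library 1 (x axis) against library 2 (y axis) for each promoter peak narrower than 5 kb, with silent-gene peaks in red (overlapping an H3K4me3 peak) or blue (not overlapping) and other promoter peaks in grey. All 471 silent-gene peaks lie above 0 on both axes and within the cloud of the other peaks.

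Genes at the peaks were mostly non-coding or predicted. Each peak was given a lead gene, the nearest protein-coding start or, without one, the nearest start, and the 471 peaks had 447 distinct lead genes. In the GENCODE M21 annotation (GRCm38) the lead gene was protein-coding at 183 peaks (38.9%), antisense at 93, a lincRNA at 72, a processed transcript at 29, and not matched by name and position at 73. Among the other promoter peaks 89.6% had a protein-coding lead gene. The peak contained the start of its lead gene at 320 of the 471 peaks (67.9%), against 88.2% of the other promoter peaks. The comparisons of H3K4me3 and base composition were not matched for this position. The denominator differs between the kinds of gene: 185 of 7002 silent protein-coding genes (2.64%) lay at a silent-gene peak, and 201 of 2541 silent non-coding genes (7.91%). Whether strand was used in counting RNA is not stated, so the low count of an antisense gene cannot be assigned to its strand.

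A listed gene start is not the only start near some of these peaks. The annotation placed a transcript start of a gene with at least 10 counts within 1 kb of 57 peaks and within 5 kb of 84 (17.8%), and 123 peaks (26.1%) lay inside the body of such a gene. Gm12925, an antisense gene inside Macf1 (which encodes a linker of microtubules and actin), Gm13620 inside Baz2b (a chromatin protein), Gm6658 inside Chd9 (a chromatin remodeller) and 4930577N17Rik inside Elf2 (an ETS transcription factor) each had at least 1 such start within 1 kb. The 84 peaks were wider (median 1725 bp) and held more H3K18cr (median 143 scaled reads) than the 387 without one (1200 bp and 90.2). The H3K18cr ratio without the 84 peaks was 1.19 in replicate 1 and 1.39 in replicate 2, and the H3K4me3 and CpG values without them are given beside those of all 471. Gene lists and named genes are given over all 471, and none (0) of the 8 histone gene peaks was among the 84.

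The 10 highest mean ratios where the ChIP libraries averaged 50 scaled reads or more belonged to Gm9312, Gm12925, 4930524L23Rik, Syt12, Gm6658, Gm13620, 5730522E02Rik, Gm7461, AC121792.3 and B930007M17Rik, and 9 of them overlapped an H3K4me3 peak. Gm9312 (chr12:24251851-24252750), a predicted gene, held 63.6 and 115 scaled reads in the ChIP libraries against 7 and 19.8 in the inputs and had 0, 2 and 2 RNA counts. It was the exception without H3K4me3. Syt12 (chr19:4476451-4477650), which encodes a synaptotagmin of synaptic vesicles, held 107 and 178 reads against 25 and 30.5 and had 3, 5 and 0 RNA counts. Its ChIP libraries were both above both inputs. Gm13620 (chr2:60123151-60126600) held the most H3K18cr of all 471 peaks by the mean of both libraries, with 363 and 773 reads against 112 and 121, while Gm12974 held more (388) in replicate 1. B930007M17Rik (chr3:139205251-139206300) had 0 counts in all 3 RNA libraries and held 79.5 and 123 reads against 19 and 27.5.

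The 3 peaks with the largest input were at Gm12974, 1700042G07Rik and Gm20703 and were 4500 to 4950 bp wide. Their mean input was 141 to 156 scaled reads and their mean ratio 1.18 to 1.70 on the log2 scale, and all 3 overlapped H3K4me3.

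About as many silent-gene peaks overlapped an H3K4me3 peak as did not. H3K4me3 overlapped 232 of 471 (49.3%, 95% Wilson interval 44.8 to 53.8%) and 8861 of the 9462 other promoter peaks (93.6%, 93.1 to 94.1%). The intervals cover counting error only. The shares were also split at the median H3K18cr read level of the silent-gene peaks, which does not match the read levels of both groups. At or under it, 1950 of 2265 other promoter peaks (86.1%) and 48.1% of the silent-gene peaks overlapped H3K4me3. Above it, 96.0% of 7197 other promoter peaks and 50.4% of the silent-gene peaks did. The part of read level in the difference was not tested. Without the 84 peaks near an annotated start of an expressed gene, 179 of 387 (46.3%) overlapped, and among the 84 it was 53 (63.1%). RNA counts, which the rule used, moved with the H3K4me3 overlap. Of the peaks, 75 of the 210 peaks with 0 counts at every gene within 5 kb overlapped H3K4me3 (35.7%), and 157 of the 261 with 1 to 9 counts (60.2%). These classes also differed in CG pairs, with a median CpG observed to expected ratio (defined below) of 0.271 and 0.469.

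Where both marks were present, H3K4me3 was lower at silent-gene peaks. The median log2 ratio of H3K4me3 ChIP to the single shared input was 1.55, 2.24 and 2.60 in the 3 libraries over the 232 peaks, and 2.01, 2.78 and 3.18 over the 8861 others. The difference had the same sign in 3 of 3 libraries, with values of -0.47, -0.55 and -0.57 (mean -0.53 ± 0.056 SD, n = 3, exact two-sided sign-flip permutation test p = 0.25, the smallest p that 3 libraries allow). Without the 84 peaks the medians were 1.52, 2.201 and 2.60, and the mean difference was -0.55 ± 0.0498 (SD, n = 3). Base composition moved with this difference. Within CpG-island-like peaks, defined as at least 50% GC and a CpG observed to expected ratio of at least 0.6, the mean difference was -0.22 ± 0.042 (SD, n = 3), and within the remaining peaks it was -0.64 ± 0.076.

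Silent-gene peaks with H3K4me3 were richer in CG pairs than those without. The CpG observed to expected ratio, the number of CG pairs relative to that given by the C and G content, had a median of 0.637 in the 232 peaks with H3K4me3 and 0.218 in the 239 without, against 0.655 in the other promoter peaks. Of the 117 CpG-island-like silent-gene peaks, 114 overlapped H3K4me3 (97.4%, Wilson 92.7 to 99.1%), near the 99.6% of the 5454 CpG-island-like other promoter peaks. Of the 354 remaining silent-gene peaks 118 did (33.3%, 28.6 to 38.4%), against 85.6% of the 4008 remaining others. Below a CpG ratio of 0.3 the shares were 9.80% of 204 silent-gene peaks and 46.0% of 779 others. Without the 84 peaks the shares of the silent-gene peaks were 96.8% of 95, 29.8% of 292 and 6.98% of 172, and the median CpG ratios 0.643 with H3K4me3 and 0.219 without. These shares are over peaks, which share their libraries, and carry no test.

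**Figure D2:**
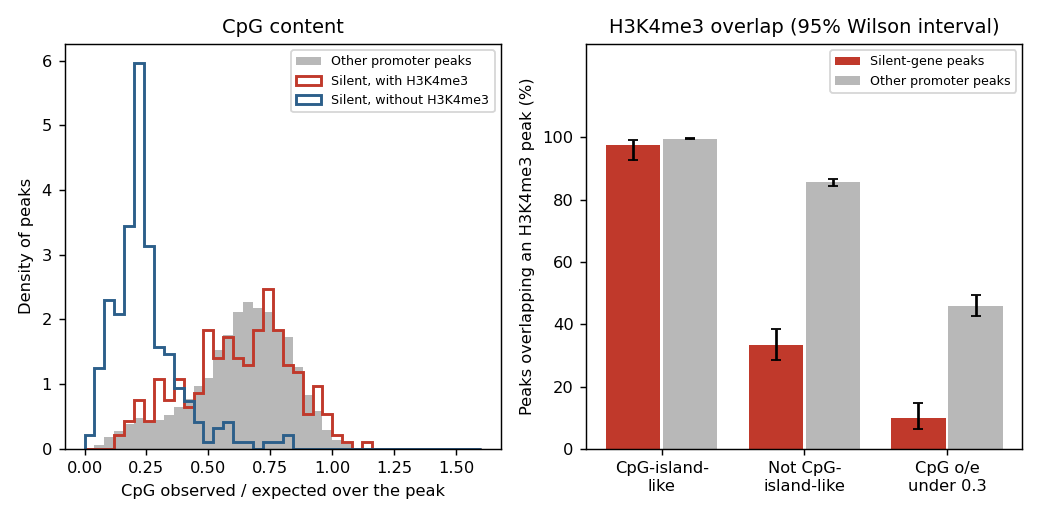
Left, density of peaks by CpG observed to expected ratio over the peak, for silent-gene peaks with (red) and without (blue) H3K4me3 and for other promoter peaks (grey). Right, percent of peaks overlapping an H3K4me3 peak by CpG class, with 95% Wilson intervals as error bars. The classes from left to right give 97.4, 33.3 and 9.80% for silent-gene peaks and 99.6, 85.6 and 46.0% for the others.

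The H3K18cr ratio was higher at the CpG-island-like silent-gene peaks in both replicates. Its median was 1.34 and 1.496 in replicates 1 and 2 at the CpG-island-like silent-gene peaks and 1.16 and 1.39 at the remaining ones. The 3 CpG-island-like peaks without an overlapping H3K4me3 peak were those of Gm9312, of Gm6787 (chrX:8096551-8097150) and the smaller of the pair at Gsc (chr12:104474251-104474700), which lay within 1 kb of an H3K4me3 peak. These 3 were named after their values were seen. Repeats took a median of 14.2% of the bases in peaks without H3K4me3 and 8.43% in those with it, by the lower-case masking of the reference. Of the peaks with H3K4me3, 114 had a protein-coding lead gene, and of those without, 69.

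Among peaks without H3K4me3, the most scaled H3K18cr reads, not corrected for width, were at Gm11648, Gm11840 and B430010I23Rik, 3 non-coding or predicted genes. Gm11648 (chr11:103343701-103348500), inside Arhgap27, held 313 and 529 scaled reads in the ChIP libraries against 111 and 118 in the inputs. Gm11840 (chr4:12006151-12010350), a lincRNA with 0 counts in all 3 RNA libraries, held 324 and 503 against 111 and 127. B430010I23Rik (chr8:41014051-41018400), inside Mtus1, held 248 and 496 against 100 and 140.4. An annotated transcript start of a gene with at least 10 counts lay within 1 kb of the first and the last. All 3 were 4200 to 4800 bp wide with a CpG ratio of 0.19 to 0.31, and each ChIP library was above each input. The 3 silent-gene peaks with the most scaled H3K4me3 reads, not corrected for width, were at Zfp423, 4930577N17Rik and Gm12925. Zfp423 (chr8:87958051-87959850), a zinc finger transcription factor of progenitor cells, held 379, 671 and 853 H3K4me3 reads against 95 in the input over a peak of 5700 bp, and its H3K18cr peak was 1800 bp wide.

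The letters before the gene starts differed most in the GC box. Of 5 motifs searched on both strands in the 200 bases upstream of the 470 silent genes at these peaks, GGGCGG (the GC box, a binding sequence of SP factors) was present at 29.6%, against 14.1% of the 10966 silent genes without an H3K18cr peak and 35.0% of all 25965 listed genes. TATAAA (the TATA box) was present at 11.7%, 15.3% and 9.73% in the same order, CCAAT at 27.4%, 28.2% and 29.8%, TGACGTCA (the cyclic AMP response element) at 1.70%, 0.921% and 1.72%, and TTCAGCACC (a core of the site of REST, a repressor of neuronal genes) at 0.426%, 0.237% and 0.220%. No motif contains another, and a match is a string of letters and not a bound site. Among the printed sequences, Gsc held TATAAA and GGGCGG, Kcng3 and Ccdc63 held GGGCGG, Hist1h3c held CCAAT, and Gm11648 held none of the 5.

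Silent genes with a peak were a small share of all silent genes. Of 11972 silent genes 1006 (8.403%) had an H3K18cr peak of any width within 1 kb of the start, against 10397 of 13993 genes with at least 10 counts (74.3%). Of those 1006 genes, 470 were at a silent-gene peak, 499 were left out because a gene with at least 10 counts started within 5 kb of the peak, and 37 because the peak was 5 kb or wider. A count of exactly 0 was found for 46.2% of the 470 genes and for 80.4% of the silent genes without a peak. The start was CpG-island-like, over 300 bases, at 33.4% and 13.4%. The distance from the peak to the nearest gene start with at least 10 counts had a median of 31851 bp. The 2 peaks with 8 or 9 counts and most H3K18cr, just inside the limit, were at Gm16722 (395 mean scaled reads, with H3K4me3) and Phxr2 (336, without it). Just outside, at 10 counts, Gm11963 held 269 without H3K4me3 and Gm13203 held 224 with it.

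Among the lists of genes examined, histone genes had the largest share at these peaks. Of 44 silent histone genes 14 (31.8%) were at 8 silent-gene peaks, 7 of which overlapped H3K4me3, and all 8 lay in the histone cluster of chromosome 13. Replication-dependent histone mRNAs carry no poly(A) tail, and the RNA was selected by poly(A), so low counts at these genes do not measure their transcription. The copies are also near identical in sequence, and the authors kept uniquely mapped reads alone. The peak at Hist1h3c and Hist1h2bb (chr13:23745451-23747700), genes of histones H3 and H2B, held 121 and 245 scaled H3K18cr reads against 50 and 101 in the inputs, and 29.9, 66.9 and 59.8 H3K4me3 reads against 16. Hist1h3c had 1, 1 and 0 RNA counts. The peak at Hist1h2bl, Hist1h2ai and Hist1h3h (chr13:21716101-21717750) held 89.0 and 143 against 38 and 51.9, and 55.2, 64.2 and 75.2 H3K4me3 reads against 7. Every ChIP library was above every input at both peaks for H3K4me3, and for H3K18cr as well. Hist1h4c (histone H4) held 108 and 107 against 45 and 51.9 and had no overlapping H3K4me3 peak. At the peak of Hist1h2ab and Hist1h3b the first ChIP library (66.8 reads) was 0.35 above its input on the log2 scale (52 reads), and the second was 1.41 above.

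**Figure D3:**
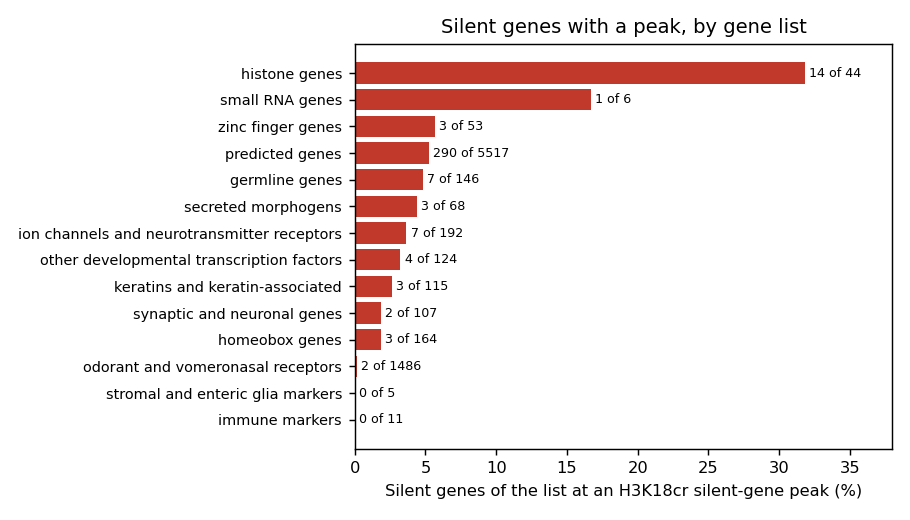
Percent of the silent genes of each list that lie at a silent-gene peak, with the number of genes beside each bar. Histone genes reach 31.8% (14 of 44) and odorant and vomeronasal receptors 0.135% (2 of 1486).

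Of all 11972 silent genes 470 (3.93%) were at a silent-gene peak, and apart from the histone genes and the 6 silent small RNA genes the shares of the lists ranged from 0 to 5.66%. Of 164 silent homeobox genes 3 (1.83%) were at 5 silent-gene peaks, 3 of which overlapped H3K4me3. Gsc, which encodes goosecoid of the embryonic organizer, had a peak (chr12:104472451-104473950) of 76.3 and 143 scaled H3K18cr reads against 31 and 36.6 in the inputs, and 223, 369 and 386 H3K4me3 reads against 55 over 3000 bp. Irx3, an Iroquois transcription factor, had a peak of 750 bp (chr8:91801351-91802100) with 54.1 and 53.5 reads against 19 and 29.0, and its H3K4me3 peak was 3450 bp wide with 248, 423 and 542 reads against 67. Nkx1-2 had 2 small peaks, 1 of them with H3K4me3. The one with H3K4me3 held 36.6 and 53.5 H3K18cr reads against 27 and 13.7, a log2 ratio of 0.42 in replicate 1 and 1.89 in replicate 2. Irx3 and Nkx1-2 had 0 counts in each RNA library, and Gsc had 0, 0 and 1. Over the 114 CpG-island-like silent-gene peaks with H3K4me3, the H3K4me3 peak was a median of 1.364 times as wide as the H3K18cr peak, and over the 5431 such other promoter peaks 1.125 times. Over the remaining peaks with H3K4me3 it was 0.908 times (118 silent-gene peaks) and 0.889 times (3430 others).

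Of 124 silent genes for other developmental transcription factors 4 (3.23%) were at a silent-gene peak, all with H3K4me3. Egr2 (a zinc finger factor of hindbrain and Schwann cells) held 119 and 180.0 scaled H3K18cr reads against 55 and 58.0 and had 5, 0 and 0 RNA counts. Hey1, a Notch target that represses transcription, held 138 and 159 against 56 and 74.8 and had 1, 3 and 1 counts. Ascl4 and Sim2 held less, with 57.2 and 66.5 against 36 and 35.1, and 30.2 and 58.4 against 10 and 25.9. Of 68 silent secreted morphogens 3 were at a peak, all with H3K4me3: Wnt9a and Wnt2b (WNT ligands) and Artn (artemin, a ligand of the RET receptor). Wnt9a had 0 counts in each library and held 52.5 and 95.7 H3K18cr reads against 35 and 36.6, with 152, 243 and 301 H3K4me3 reads against 42.

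Genes of excitable cells had 7 members among 192 silent ion channels and neurotransmitter receptors (3.65%) and 2 among 107 silent synaptic and neuronal genes (1.87%). Kcng3 (chr17:83631001-83632650) held 102 and 146 scaled H3K18cr reads against 59 and 53.4, and 214, 366 and 471 H3K4me3 reads against 36. Htr1d, a serotonin receptor, held 73.1 and 118 against 21 and 27.5. Its RNA counts were 0, 0 and 7, all from 1 library. Kcna7 and Cacnb4 also overlapped H3K4me3, whereas Kcnj13 and Scn3b did not. Elavl3, which encodes a neuronal RNA-binding protein, held 52.5 and 69.7 against 31 and 27.5 with 122, 134 and 260.4 H3K4me3 reads against 43. Its RNA counts were 0, 3 and 6. At Kcnj13 the first H3K18cr library (28.6 reads) was close to its input (21 reads), with a log2 ratio of 0.43, and the second was 1.57.

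Germline genes were split between both kinds of peak, with 7 of 146 silent genes (4.79%) and 4 peaks with H3K4me3. By the mean of both libraries Ccdc63 held the most H3K18cr, 134 and 302 scaled reads against 71 and 96.2, while Zp2 held more in replicate 1. Ccdc63 had 0 counts in each RNA library and no H3K4me3 peak. Zp2, which encodes a protein of the egg coat, held 139.9 and 182 against 64 and 88.5 without H3K4me3. Ccdc30 held 121 and 164 against 48 and 42.7 and overlapped H3K4me3 at a CpG ratio of 0.23. Ccdc79, which encodes a protein that ties telomeres to the nuclear envelope in meiosis, held 76.3 and 156 against 33 and 39.7 with 163, 230.0 and 301 H3K4me3 reads against 35. Tex22, Boll (an RNA-binding protein of the testis) and Dppa3 (a maternal factor of the early embryo) held less, and Dppa3 had no H3K4me3 peak.

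Odorant receptors and keratins were at these peaks in small numbers and without H3K4me3. Of 1486 silent odorant and vomeronasal receptors 2 were, Olfr653 and Olfr655, both on chromosome 7. Olfr653 (chr7:104580001-104583150) held 178 and 269 scaled reads against 66 and 93.1, and Olfr655 (chr7:104596351-104598900) held 135 and 162 against 68 and 82.4. Both had 0 counts in each RNA library and a CpG ratio of 0.20. Of 115 silent keratins and keratin-associated genes 3 were at a peak: Krtap5-3, Krtap5-5 and Krt82 (a hair keratin), with CpG ratios of 0.05 to 0.21. Mir30d, a microRNA gene, held 124 and 299.9 reads against 51 and 59.5 with H3K4me3, and the poly(A) selection also does not measure its mature product. Of 53 silent zinc finger genes 3 were at a peak (Zfp423, Zfp457 and Zfp354b), all with H3K4me3. Of 11 silent immune markers and 5 silent stromal and enteric glia markers none (0) was. Predicted genes, those with a Gm number, a Rik name or the like, made up 290 of the 470 genes at 307 peaks, 127 of them with H3K4me3. These lists were compared by counts alone.

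**Figure D4:**
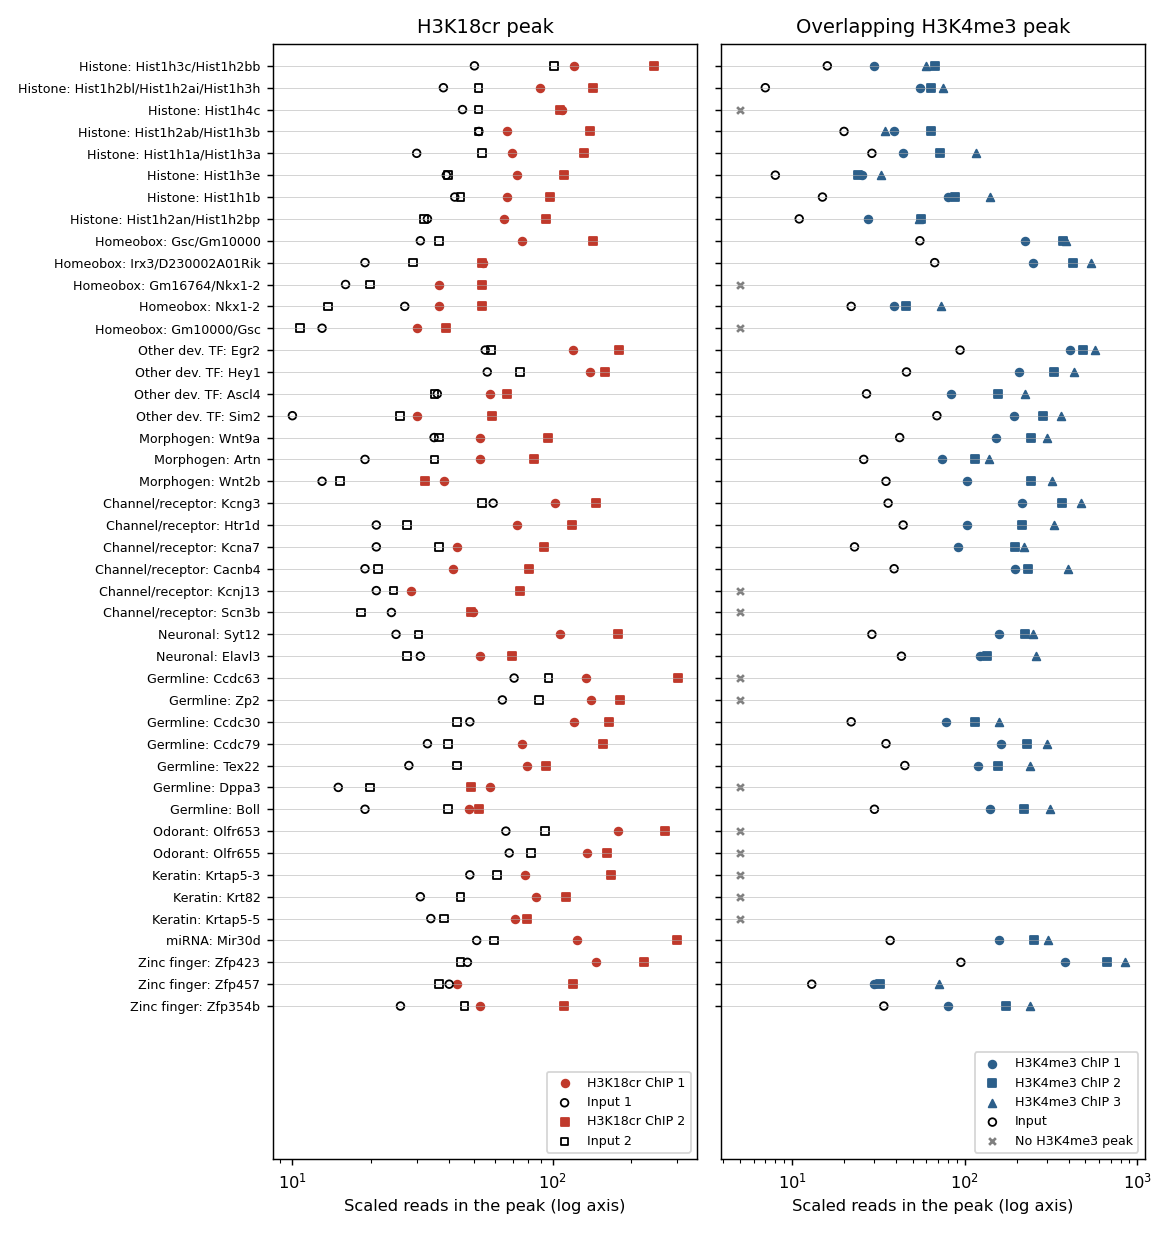
Scaled reads on a log axis at silent-gene peaks of the gene lists, without the predicted genes. Left, the 2 H3K18cr ChIP libraries (filled) and their inputs (open). Right, the 3 H3K4me3 libraries and their input over the overlapping H3K4me3 peak, with a grey cross at the axis for peaks without one, such as those of Olfr653, Krt82 and Ccdc63.

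In HCT116 cells the question was whether human genes of the same name carry the marks and respond to MS275. Of 469 gene symbols at the peaks, 155 matched a human symbol in capitals, and the 143 that are no histone genes were followed, since histone copies are not paired by symbol between the species. A matched symbol is not a checked ortholog. Of the 143 genes 40 (28.0%) had under 10 counts over 8 libraries, and 63 (44.1%, Wilson 36.2 to 52.2%) had an HCT116 ChIP peak within 1 kb of the start. For names of colon genes with at least 10 counts and an H3K18cr peak, 86.6% of 8623 human genes had such a peak and 3.26% had under 10 counts. For names of silent colon genes without a peak these were 22.6% and 44.2% of 3461. Of the 63 genes with a peak, 4 had under 10 counts in HCT116 cells.

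RNA of few same-name genes was called after MS275. Of 64 genes that passed the filter on low counts, 0 were called by edgeR's quasi-likelihood test at an adjusted p under 0.05, where 0.00668% of 14961 tested genes were, and 9 (14.1%) had an unadjusted p under 0.05, as 6.597% of all tested genes had. DESeq2 called 3 of 118 (2.54%), all higher, where it called 0.668% of all genes. Libraries with the same number deviated together, and with the number as a block 9 of 64 were called (14.1%), 7 higher and 2 lower, where 14.4% of all genes were called, 7.83% higher and 6.55% lower. With the block, the share among the same-name genes is near that of all genes. Without it, their share was above that of all genes by DESeq2 and at an unadjusted p under 0.05 by edgeR. The median log2 change of the 64 was 0.18 with the block, against 0.01 over all genes.

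Among the genes called with the block, CEND1, HEY1, AKAP6, HPCAL4, SRCIN1 and PRSS12 rose, and MDFI and TRIB3 fell. CEND1, which encodes a protein of neuronal differentiation, had 0.178, 0, 0.589 and 0.318 CPM in DMSO and 4.06, 2.03, 9.16 and 1.55 CPM with MS275. The groups did not overlap, and the log2 change was 4.05 ± 0.72 (SE) with an adjusted p of 0.00363 by edgeR with the block and 0.336 without it. HEY1 had 0.379, 0.523, 0 and 0.543 CPM in DMSO and 2.89, 4.45, 1.66 and 1.62 with MS275, without overlap, and its log2 change was 3.18 ± 0.89 (SE, edgeR adjusted p 0.0326 with the block and 0.482 without). Both are low in DMSO, so the size of their change depends on few counts. AKAP6, which encodes an anchor of protein kinase A, changed by 2.24 on the log2 scale with the block (edgeR adjusted p 0.0307) and by 1.51 without it (0.895), where leaving out replicate 1 gave 1.12 and replicate 2 gave 2.16. It too was low in DMSO, and its groups overlapped. HPCAL4, a neuronal calcium sensor, was better measured, with 10.4, 15.4, 6.53 and 14.5 CPM in DMSO and 32.4, 44.8, 20.4 and 39.7 with MS275. Its log2 change was 1.55 ± 0.12 (SE, edgeR adjusted p 4.95e-05 with the block and 0.229 without), higher in 4 of 4 pairs.

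TRIB3, a pseudokinase of the stress response, had 79.5, 96.5, 112 and 85.4 CPM in DMSO and 55.7, 52.7, 71.9 and 53.2 with MS275. The groups did not overlap, it was lower in 4 of 4 pairs, and its log2 change was -0.69 ± 0.08 (SE, edgeR adjusted p 3.67e-04 with the block and 0.497 without). MDFI, an inhibitor of myogenic factors, changed by -0.53 on the log2 scale (edgeR adjusted p 0.0404 with the block, 0.866 without), and its groups overlapped. SRCIN1 (an inhibitor of SRC) rose by 0.57 and PRSS12 (a serine protease of neurons) by 0.51 on the log2 scale with the block, with overlapping groups. In the mouse colon the peaks of Hpcal4, Trib3, Srcin1, Mdfi, Prss12 and Hey1 overlapped H3K4me3, and those of Cend1 and Akap6 did not.

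**Figure D5:**
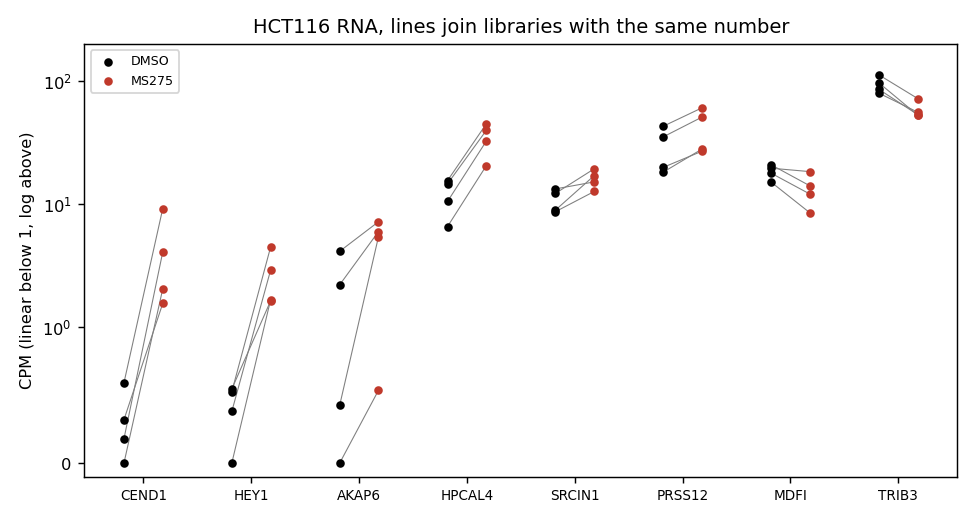
CPM of 8 same-name human genes called with the replicate number as a block, in 4 DMSO (black) and 4 MS275 (red) libraries of HCT116 cells, with lines joining libraries of the same number (axis linear below 1 and log above). CEND1, HEY1 and HPCAL4 are higher and TRIB3 lower with MS275 without overlap.

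Relative to the reads of each library, H3K18cr was lower after MS275 at 24 of the peaks at starts of same-name genes. The study itself reported more histone crotonylation after MS275 by western blot, and more H3K18cr by ChIP-qPCR at the promoters it chose. For its ChIP-seq it proposes an apparent drop at gene starts because the mark rose more elsewhere. Of 61 peaks tested 24 were called lower and 0 higher by limma at an adjusted p under 0.05 (39.3%), where 23.4% of 39399 peaks were called lower and 0.236% higher, and 55.9% of the 12029 tested peaks within 1 kb of any listed gene start. The median log2 change was -0.43 at the 61 peaks, -0.20 over all peaks and -0.55 over those at gene starts. The difference between these groups of peaks was not tested. These values are relative to the reads of each library: with TMM scaling over the peaks the median of all peaks moved from -0.20 to 0.04, that of the 61 to -0.18 and that of the peaks at gene starts to -0.30, 7 of the 61 were called lower where 11.2% of all peaks and 30.1% of those at gene starts were, and the calls over all peaks went from 93 higher and 9228 lower to 765 higher (1.94%) and 4421 lower. Library numbers 1, 2 and 3 also mattered, as leaving out number 1 or number 2 left 3 calls each (7.38% and 5.26% of all peaks called) and leaving out number 3 gave 44 (38.4% of all).

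For H3K18ac 14 of 61 peaks were called lower and 0 higher (22.95%), where 16.6% of all 39479 peaks and 43.3% of those at gene starts were called lower, and 0.261% of all higher. The medians were -0.38 at the 61 peaks, -0.19 over all and -0.60 over those at gene starts. With TMM scaling the medians were -0.13, 0.06 and -0.34 in the same order, and 15 were called lower and 2 higher, where 16.8% and 4.79% of all peaks were and 44.0% of those at gene starts were lower. Leaving out number 1 gave 32 calls by limma (30.1% of all peaks called), number 2 gave 0 (0.00253%, 1 peak of all, with 8 of the 61 and 10.03% of all peaks at an unadjusted p under 0.05) and number 3 gave 2 (2.2%). The median of the 61 was -0.67, -0.37 and -0.17 without numbers 1, 2 and 3.

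The largest falls of H3K18cr, relative to library reads, were at CCDC30, CDKN2A and TRNP1. The peak at CCDC30, the human name of the mouse germline-list gene, held 196, 186 and 223 scaled reads in DMSO and 81.0, 101 and 135 with MS275 (chr1:42461851-42464850, GRCh38). Its groups did not overlap and the log2 change was -0.96 ± 0.18 (SE, limma adjusted p 2.84e-04). CDKN2A, a tumour suppressor gene with more than one promoter, had a peak (chr9:21992701-21997800) within 1 kb of its listed start that also covers the starts of CDKN2B-AS1 and of 1 further gene, and it held 487, 468 and 495 reads in DMSO and 236, 244 and 325 with MS275 (log2 change -0.86 ± 0.16, limma adjusted p 1.91e-04). TRNP1, a regulator of cortical progenitors, had a peak 18600 bp wide with 1788, 1559 and 1372 reads in DMSO and 911, 829 and 993 with MS275 (log2 change -0.78 ± 0.15, limma adjusted p 2.57e-04). Falls at CCDC30 and CDKN2A were called under each of the alternatives run, and TRNP1 was lost without number 1 (adjusted p 0.0697) and without number 2 (0.0719).

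The largest falls of H3K18ac, again relative to library reads, were at APOC1 (an apolipoprotein), CCDC30 and CDKN2A. APOC1 (chr19:44914951-44915850) held 39.6, 67.9 and 83.7 reads in DMSO and 26.0, 21.4 and 24.1 with MS275, without overlap, and its log2 change was -1.36 ± 0.26 (SE, limma adjusted p 4.54e-05). CCDC30 changed by -1.07 and CDKN2A by -0.998 on the log2 scale (limma adjusted p 7.77e-04 and 0.00164), and all 3 lost the call without number 2 (adjusted p 0.234, 0.461 and 0.497). CDKN2A lost it without number 3 as well (0.0935). With the number as a block CCDC30 (0.0563) and CDKN2A (0.0995) also lost it at the same log2 changes, and 1 of 61 peaks was called where 2.27% of all were. In mouse colon Cdkn2a and Trnp1 had H3K4me3 at their peaks and Apoc1 did not, and their RNA counts summed to 0, 1 and 0.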

How the data were processed

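RNA-seq values are raw counts per gene that the authors deposited. Per the study's methods, RNA reads were trimmed with Trim Galore 0.4.2, aligned with HiSat2 to GRCm38 (stated for mouse), filtered for unique mapping and counted in SEQMONK, and ChIP reads were aligned with Bowtie2 to GRCm38 or GRCh38. The submitters' processing notes name TopHat2 2.0.12, with no role, beside Bowtie2 2.2.5. For human RNA the methods state no build, and the notes list GRCh38 beside GRCm38 for some of these samples and GRCm38 alone for others. Colon ChIP values are a signal, read counts per MACS peak that the authors scaled by 1 factor per library to the largest library, with duplicate reads removed. Whether peaks were called on pooled replicates is not given in the sources used here. HCT116 ChIP values were deposited as log2 of reads per peak scaled in the same way. Turned back to the linear scale, 100% of them were whole multiples of what 1 read is worth (within 0.02 reads or a relative 0.001), and the whole reads recovered this way were used for edgeR as an alternative.

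Gene starts were taken from the colon RNA table. The regions, gene lists and tests were chosen with earlier results of these data known. Biotypes, transcript starts and sequences came from GENCODE M21 and the GRCm38.p6 genome. Log2 ratios of ChIP to input had a pseudocount of 1 scaled read. HCT116 RNA was tested with edgeR 4.0.16 (quasi-likelihood, TMM, low-count filter), with DESeq2 1.42.0 as an alternative, and HCT116 peaks with limma 3.58.1 (trend) on the deposited log2 values without a further pseudocount, over peaks with at least 10 reads in at least 3 libraries. P-values were adjusted by Benjamini-Hochberg over all genes or peaks tested, with calls at 0.05. R 4.3.3, Python 3.11.15, pandas 2.3.3 and scipy 1.17.1 were used. On simulated data with 200 features changed 4-fold, edgeR recovered 200 among 213 called over 14961 genes. By limma 200 were recovered among 205 called over 40266 peaks. The simulated noise was fixed and held no effect of the replicate number, and the changed genes were well covered. It checks that the tests run as meant and does not give their power in the real data. Of the HCT116 RNA libraries those with the same number in the labels deviated together, with correlations of 0.226, 0.151, 0.436 and 0.460 between the deviations from the group means of the numbered pairs, so values with the number as a block are given beside the results.

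Named were the 10 highest ratios among peaks with at least 50 mean scaled reads, up to 4 members of each list by H3K18cr, the 3 peaks with most H3K4me3, with most H3K18cr among those without it, and with the largest input, the nearest peaks on both sides of the count limit, and in HCT116 cells the 3 largest rises and falls among those called. Other names were added after values were seen. HCT116 peak libraries held 2236551 to 5730094 reads in peaks. Some named results are not reported here.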

Additional observations from a re-analysis of the deposited data

Results flagged for a closer look

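TRIB3 RNA in HCT116 cells with MS275 was 71.9 CPM in replicate 3, while the other 3 libraries held 52.7 to 55.7 CPM, a gap to the nearest library past Dixon's 95% critical value for 4 samples. The same number also had the highest DMSO value (112 CPM). Of 18 groups of 4 libraries examined this was the single one past the limit, and chance passes about 1 in 20.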

How the results depend on the processing

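The number of silent-gene peaks was 210 when 0 counts were required, 262 when no annotated start of an expressed or unlisted gene was allowed within 5 kb, 513 to 541 when 1 RNA library was left out, and 368 to 675 under the other settings. The share overlapping H3K4me3 was 35.7% at 0 counts and 56.9% under 30 counts, and 46.3 to 52.0% otherwise. The median H3K18cr ratio was 1.20 to 1.41 with 1 replicate left out, and the H3K4me3 difference -0.51 to -0.56, where 2 libraries allow no p under 0.5. The CpG-island-like share was 31.6% over 300 bases around the start. Depth limits the RNA counts, since under 10 counts over 3 libraries does not show that RNA is absent.

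In HCT116 cells, same-name genes called in RNA numbered 9 with the replicate block (14.4% of all genes called), 1 when genes with at least 1 count were tested (0.0521%), 3 with DESeq2 (0.668%) and 0 to 1 with 1 replicate number left out (0 to 0.0531%). H3K18cr calls numbered 7 with TMM scaling (13.2% of all peaks called), 10 with edgeR on recovered reads (14.0%), 3 to 44 with 1 number left out (5.26 to 38.4%), and 29 with the replicate block (27.1%). H3K18ac calls numbered 1 with the replicate block (2.27%), 0 to 32 with 1 number left out (0.00253 to 30.1%), and 17 with TMM scaling (21.6%) or edgeR (21.9%). Deviations of same-numbered ChIP libraries correlated at 0.104, 0.0736 and 0.225 for H3K18cr, and at -0.21, 0.0469 and -0.13 for H3K18ac. No limit for pairing was set, and the study ran a paired t-test on these marks, so their pairing is undecided here. Over single ChIP peaks 34 settings kept the call and 8 lost it. For the RNA genes, with no call by edgeR without the block, 58 settings gave none either and 14 gave one, 9 of them with the block. No (0) change of a single gene or peak named here turned its sign. The cause of these shifts was not tested.

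Alternatives chosen after seeing the data were the 387 peaks without an annotated start of an expressed gene, their H3K4me3 share and level, H3K18cr ratio and CpG content, 1 peak per lead gene, and leaving histone genes out of the HCT116 comparison.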
